A study of Bos taurus with 2 samples.

Results

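The genes of 10 secreted proteins of the basement membrane and the interstitial matrix were followed through the cells of day 25 bovine embryos: the laminin chains LAMA5 and LAMB1, the laminin linker NID1, the proteoglycan AGRN, the matricellular proteins SPARC and TNC, the fibulin FBLN1, the fibrillin FBN1 and the proteoglycans VCAN and DCN. These 10 genes were taken by symbol from the 17846 genes of the table, and all 10 were present. The embryos were flushed from cattle at day 25 and were chimeras that carried bovine embryonic stem cells. They were dissociated with papain and DNase, sorted, and profiled with droplet-based 3′ single-cell RNA sequencing. Neither the sort gate nor the share of donor-derived cells is known here. The 2 samples are replicates 1 and 2 of 1 group with no treated or control arm, so every comparison lies between cell gates within the same 2 suspensions. The labels do not say that the samples came from separate embryos, so p-values measure only the spread between these samples, which may be technical.

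Laminins are trimers that polymerise into the sheet on which epithelia, endothelia and neural tissue rest. Nidogen links that sheet to the collagen IV network, and agrin and perlecan are heparan sulfate proteoglycans that bind to it. Beyond it, fibroblasts and other mesenchymal cells lay down fibrillar collagens, collagen VI, fibrillin microfibrils, fibulins and the proteoglycans versican and decorin, while SPARC and tenascin-C modulate how cells attach to this matrix. Embryonic neural tissue is bounded by a basement membrane and has a matrix rich in chondroitin sulfate proteoglycans.

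Cells were sorted into gates by UMIs (tags that let each captured RNA be counted a single time) of genes other than the members. Collagen VI cells had 2 or more UMIs of COL6A1, COL6A2 and COL6A3 (53 cells in replicate 1 and 97 in replicate 2). Neuron-gate cells had UMIs of 3 or more of TUBB3, DCX, ELAVL3, ELAVL4 and STMN2 (426 and 509 cells). SOX2 cells had 1 or more SOX2 UMI and fell in none of the other gates (805 and 1094 cells). In PAG/PRP cells, pregnancy-associated glycoprotein and prolactin-related protein genes made up 1% or more of UMIs, with at least 10 UMIs (12 and 9 cells). Another 634 and 688 cells met no gate, and 9 and 23 cells with 5% or more globin UMIs served as a reference for RNA that floats free in the suspension.

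The kept cells numbered 4359 of 4437 deposited, with a median of 4987 UMIs per cell in replicate 1 and 5704 in replicate 2, and 6 barcodes occurred in both replicates. Median depth was 8848 and 10418 UMIs in collagen VI cells, 7259 and 8077 in neuron-gate cells, 5611 and 6465 in SOX2 cells, and 11144 and 10740 in PAG/PRP cells. The gates also differed in the share of UMIs from ribosomal protein genes, with medians of 18.2% and 21.3% in collagen VI cells, 7.32% and 12.2% in neuron-gate cells, and 4.1% and 6.36% in SOX2 cells. The neuron and SOX2 gates are not separate populations by their genes: 454 neuron-gate cells carried a SOX2 UMI. Summed neuronal markers that took no part in the gate (INA, GAP43, SNAP25 and 6 others) stood at 1839 and 2099 counts in 1000000 UMIs (CPM) in neuron-gate cells and at 349 and 359 in SOX2 cells. PAG/PRP cells had 2759 and 7022 CPM of trophoblast markers. A myeloid list summed to 649 and 871 CPM in them, but the single gene AIF1 held 621 and 871 of these. The other listed genes CSF1R and CD68 were each at 14.1 and 0 CPM, and PTPRC and C1QB were at 0. Collagen VI cells had high mesenchymal collagens (COL1A1 at 8078 and 8699 CPM, COL3A1 at 9462 and 10250), together with APOA1 (13490 and 14810), RBP4 (6972 and 6869) and KRT19 (5131 and 5978). Other markers of the same lists were low: mesenchymal PRRX1 was at 8.32 and 11.3 CPM against 14.9 and 21.3 in SOX2 cells, endodermal FOXA2 at 8.32 and 16.4 against 270.5 and 286, and APOA2, AFP and FOXA1 were at 0. EPCAM and CDH1, which define most epithelia, were at 0 in them, so the gate is called by its collagen VI rule and not as a cell type.

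In each of the 9 members other than FBN1, the level was highest in collagen VI cells. The plot of levels by gate shows this as a gap between both collagen VI replicates and all other points. FBN1 had the opposite place, lowest among the collagen VI, neuron, SOX2 and ungated cells. The levels are CPM of summed UMIs from 3′ tags without division by transcript length.

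**Figure D1:**
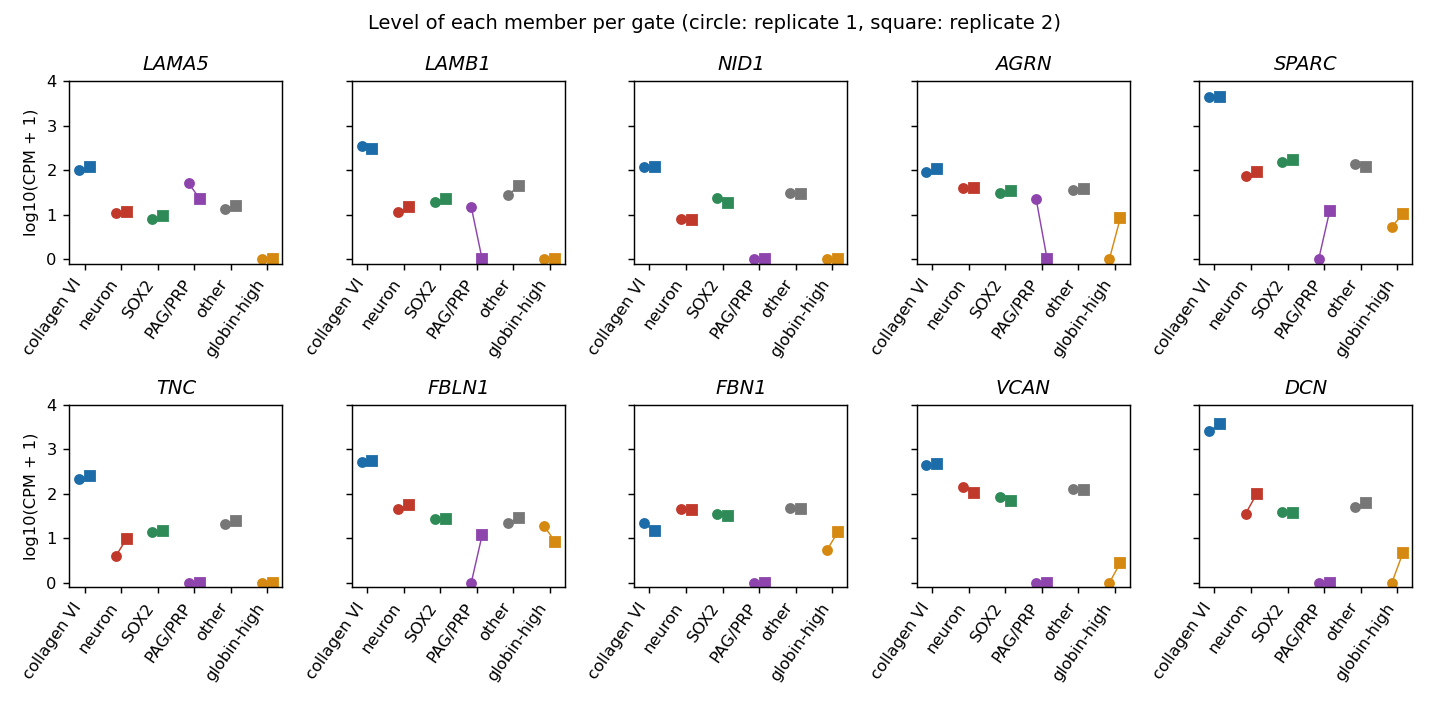
Level of each of the 10 members, as log10(CPM + 1), in 6 gates of cells, with a circle for replicate 1 and a square for replicate 2 joined by a line. The 9 members other than FBN1 are highest in collagen VI cells in both replicates, and FBN1 lies lower there (20.8 and 13.3 CPM) than in neuron-gate, SOX2 and ungated cells.

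The laminin chain LAMB1, a β subunit found in most embryonic laminins, reached 356 CPM in collagen VI cells of replicate 1 and 303 CPM in replicate 2. In SOX2 cells it stood at 18.6 and 21.7 CPM and in neuron-gate cells at 10.8 and 13.7 CPM. The 3 ranges did not overlap, and collagen VI cells were higher than SOX2 cells by 4.66 on the log2 scale (SE 0.14, adjusted p = 9.17e-14, edgeR quasi-likelihood test). The α chain LAMA5, typical of mature epithelial and endothelial basement membranes, was at 99.8 and 118 CPM in collagen VI cells, 6.93 and 8.45 in SOX2 cells and 9.80 and 10.6 in neuron-gate cells. Its excess in collagen VI cells was 4.48 over SOX2 cells (SE 0.21, adjusted p = 1.65e-11) and 3.93 over neuron-gate cells (SE 0.21, adjusted p = 1.39e-10). No replicate of either neural gate came near the collagen VI values.

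NID1, which bridges laminin and collagen IV, had 114 and 117 CPM in collagen VI cells, 22.6 and 17.0 CPM in SOX2 cells and 7.18 and 6.58 CPM in neuron-gate cells. No 2 of these gates overlapped, and NID1 had the largest called decrease of any member from SOX2 to neuron-gate cells (log2 -1.35, SE 0.24, adjusted p = 2.09e-04). In the ungated cells NID1 was at 30.3 and 27.6 CPM, above SOX2 cells in both replicates. AGRN, which organises acetylcholine receptors at the neuromuscular junction and is also a general basement membrane proteoglycan, varied least among the 9: 89.4 and 106 CPM in collagen VI cells, 37.9 and 39.5 in neuron-gate cells, and 29.2 and 33.4 in SOX2 cells. Its difference between collagen VI and SOX2 cells was 2.32 (SE 0.17, adjusted p = 8.54e-09).

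SPARC, a calcium-binding protein that binds collagen, had 2131 UMIs in the 53 collagen VI cells of replicate 1 and 4349 in the 97 cells of replicate 2. That equals 4431 and 4453 CPM, against 149 and 166 CPM in SOX2 cells and 73.5 and 91.1 CPM in neuron-gate cells. The replicates lay close together in collagen VI cells, and the gates did not overlap. The excess was 5.48 over SOX2 cells (SE 0.09, adjusted p = 2.54e-17) and 6.26 over neuron-gate cells (SE 0.09, adjusted p = 1.88e-17). TNC, the hexameric glycoprotein tenascin-C, had 210 and 245 CPM in collagen VI cells and 13.2 and 13.9 CPM in SOX2 cells. In neuron-gate cells it rested on few molecules, 9 UMIs in replicate 1 and 35 in replicate 2 (2.94 and 8.86 CPM).

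FBLN1, a fibulin that binds basement membranes and elastic fibres, had 522 and 549 CPM in collagen VI cells. Neuron-gate cells were next at 45.7 and 54.4 CPM, and SOX2 cells had 25.9 and 26.6 CPM. The neuron-gate excess over SOX2 cells, 1.10 on the log2 scale (SE 0.13, adjusted p = 3.30e-06), was the largest called excess of any member in that contrast. SOX2 and ungated cells (21.8 and 27.6 CPM) could not be ordered, since their replicates overlapped.

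FBN1, the main component of microfibrils, was detected in only 9.43% and 9.28% of collagen VI cells (10 and 13 UMIs, 20.8 and 13.3 CPM). Neuron-gate cells had 45.4 and 41.8 CPM, SOX2 cells 34.7 and 30.5 CPM and ungated cells 47.8 and 43.6 CPM. Both collagen VI replicates were below all of these, and only the neuron-gate and ungated cells overlapped. Against neuron-gate cells the difference was called (log2 -0.92, SE 0.29, adjusted p = 0.0165), while against SOX2 cells it was -0.34 (SE 0.30, adjusted p = 0.375). Both depended on the setting. In cells with 10% or more ribosomal UMIs the difference from neuron-gate cells was -0.21 (adjusted p = 0.677), and with scaling by library totals that from SOX2 cells became -1.01 (adjusted p = 0.00418).

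VCAN, the large chondroitin sulfate proteoglycan of loose embryonic matrix, had 433 and 459 CPM in collagen VI cells, 145 and 104 in neuron-gate cells and 83.8 and 68.8 in SOX2 cells. No pair of these gates overlapped, and neuron-gate cells exceeded SOX2 cells by 0.85 (SE 0.12, adjusted p = 4.32e-05). DCN, a small leucine-rich proteoglycan that coats collagen fibrils, had the widest span, from 2587 and 3615 CPM in collagen VI cells to 38.5 and 36.9 CPM in SOX2 cells (log2 7.03, SE 0.44, adjusted p = 0.00300). In neuron-gate cells DCN differed between the replicates, at 34.6 and 97.7 CPM, and so overlapped the SOX2 values. Its neuron-gate difference from SOX2 cells was 0.96 (SE 0.46, adjusted p = 0.214); it was -0.01 without replicate 2 and 1.56 without replicate 1, both values with no test.

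Against SOX2 cells, 9 of the 10 members were higher in collagen VI cells and 0 were lower at an adjusted p under 0.05, where 44.3% of the 12912 genes tested were called, 23.6% as higher and 20.7% as lower. The median member difference was 4.57 and that of all genes tested -0.09. Against neuron-gate cells 9 members were higher and 1, FBN1, was lower, with 43.1% of genes called, 22.5% as higher and 20.6% as lower; the medians were 4.27 and -0.08. In neuron-gate against SOX2 cells 4 members were higher (FBLN1, VCAN, FBN1 and AGRN) and 4 were lower (NID1, TNC, SPARC and LAMB1), with 45.3% of genes called. So 8 of 10 members were called, in both directions alike, and their median of 0.50 (-0.01 for all genes) does not describe their size. The 3 contrasts share their sums of cells and are not independent.

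**Figure D2:**
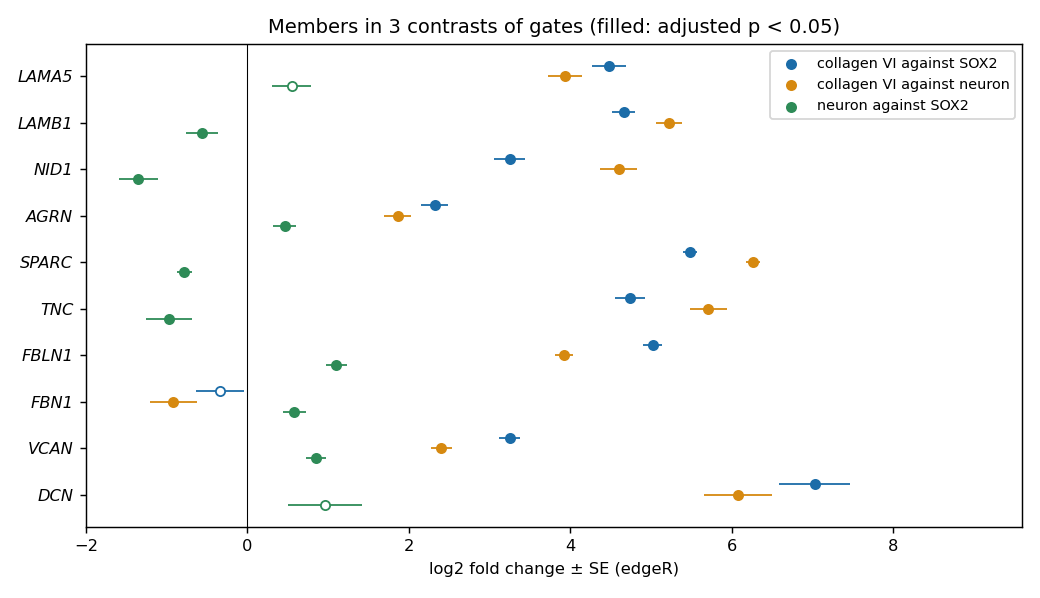
Log2 fold change with its standard error for each member in 3 contrasts of gates, from 2 replicates per gate; filled points had an edgeR adjusted p under 0.05. The 9 members other than FBN1 lie between 1.86 and 7.03 in both contrasts of collagen VI cells, and FBN1 lies at -0.34 and -0.92.

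The direction of all members in these 3 contrasts was the same when sums were scaled by library totals instead of TMM factors. That scaling moved the median of all genes to -0.76 against SOX2 cells, -0.60 against neuron-gate cells and -0.17 in neuron-gate against SOX2 cells. The share of calls that were higher went from 53.3% to 21.3%, from 52.2% to 25.5% and from 50.6% to 34.8%, with 63.3%, 57.4% and 49.2% of genes called. AGRN, at 0.46 in neuron-gate against SOX2 cells (SE 0.14, adjusted p = 0.0134), lost its call there (0.30, adjusted p = 0.0806).

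The sums hide how unevenly some members were spread over cells. SPARC had a UMI in 83.0% and 86.6% of collagen VI cells and in 42.9% and 49.5% of SOX2 cells, where the 5 cells with the most UMIs held 6.03% and 4.36% of them. DCN, by contrast, had a UMI in 3.73% and 6.03% of SOX2 cells, and 5 cells held 79.4% and 53.1% of its UMIs there. So SPARC was present at a low level in many SOX2 cells, while most DCN UMIs of that gate lay in 5 cells of each replicate. TNC in neuron-gate cells had too few UMIs for such a share to be read. Replicate 1 had 9 UMIs in 7 cells, with at most 2 in a cell. Replicate 2 had 35 UMIs in 19 cells, with 11 in a single cell. In globin-high cells, deeper at medians of 27366 and 21831 UMIs, SPARC was found in 1 of 9 and 5 of 23 cells and DCN in 0 of 9 and 2 of 23 cells; the 0 of 9 allows a share of up to 33.3%.

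**Figure D3:**
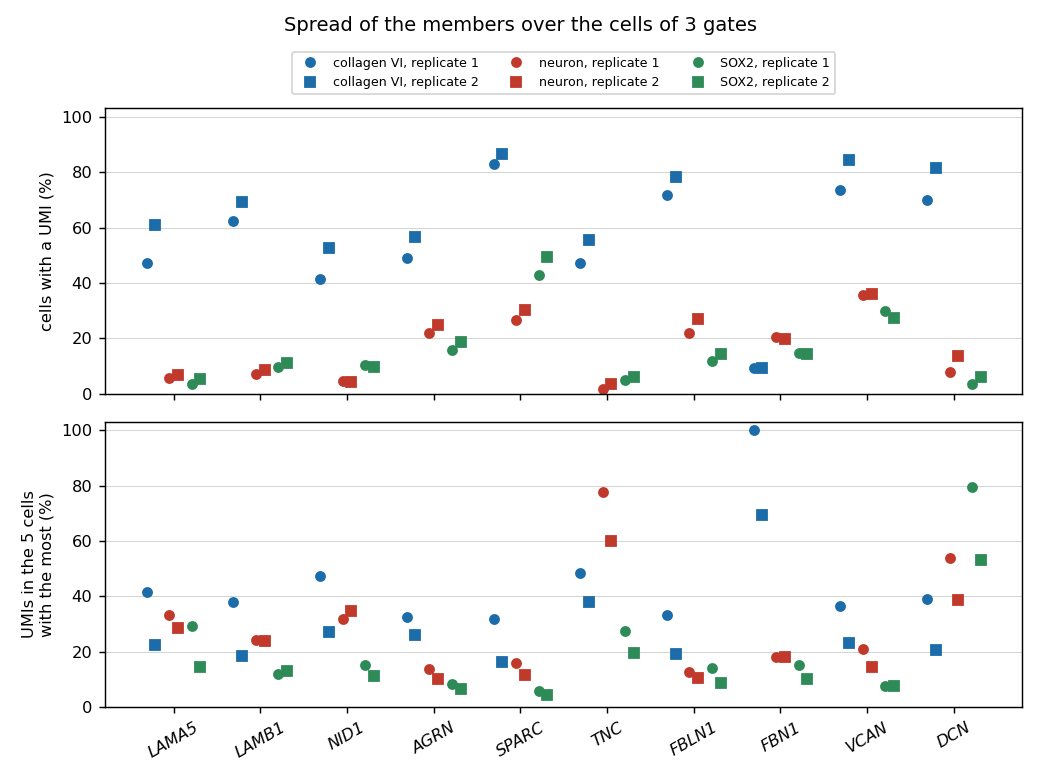
Share of cells with at least 1 UMI (upper panel) and share of a member's UMIs held by the 5 cells with the most (lower panel), both in percent, for 3 gates and 2 replicates. SPARC and VCAN are found in many neuron-gate and SOX2 cells. Their share in 5 cells is low in SOX2 cells and reaches 21.0%, for VCAN, in neuron-gate cells of replicate 1. Most DCN UMIs of SOX2 cells lie in 5 cells, as do 53.8% and 38.6% of those of neuron-gate cells. TNC in neuron-gate cells (9 and 35 UMIs) and FBN1 in collagen VI cells (10 and 13 UMIs) have few UMIs, so their lower-panel shares are not read. A single cell held 11 of the 35 TNC UMIs, and another 6 of the 10 FBN1 UMIs.

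Depth was made equal by thinning each cell to 2000 UMIs, which left out 3 and 3 collagen VI, 11 and 13 neuron-gate and 65 and 75 SOX2 cells that were shallower. SPARC was then found in 74.0% and 83.0% of collagen VI cells, 20.9% and 23.7% of SOX2 cells and 10.1% and 12.3% of neuron-gate cells. In globin-high cells thinned alike, SPARC was in 0% and 4.76%. A thinned collagen VI cell held 3.68 and 3.81 of the 10 members on average, a SOX2 cell 0.673 and 0.677, a neuron-gate cell 0.576 and 0.698, a PAG/PRP cell 0.222 and 0.250 and a globin-high cell 0.111 and 0.190. Within thinned collagen VI cells SPARC and DCN were found together in 64.0% and 73.4%, where the product of their single shares was 50.3% and 64.4%. Both were commoner in the collagen VI cells with 2 or more UMIs of KRT8 and KRT18, described below. SPARC was in 93.9% and 97.1% of these and in 35.3% and 44.0% of the rest. DCN was in 93.9% and 94.2% against 17.65% and 32.0%. The part of this mixture in the joint share was not tested. FBN1 and VCAN were found together in 0 of 50 and 0 of 94 cells, where the product was 0.84% and 1.13%, too low for 0 to be informative.

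Collagen VI cells were not uniform. KRT8 and KRT18, keratins of simple epithelia that some mesenchymal and extraembryonic cells also express, had 2 or more UMIs in 33 and 70 of the cells and fewer in 20 and 27. SPARC was at 5486 and 5187 CPM in cells with keratin and at 865 and 300 CPM in those without (log2 4.19, SE 0.56, adjusted p = 1.18e-06). DCN was at 3231 and 4195 CPM against 410 and 328 CPM (4.17, SE 0.51, adjusted p = 3.37e-07). Neither gene overlapped between the subsets, and the cells with keratin held 95.5% and 99.0% of the gate's SPARC UMIs against 77.2% and 85.0% of all its UMIs.

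All 9 members that passed the filter on low counts were higher in cells with keratin, where 48.1% of the 5412 genes tested were called, 25.1% as higher. FBN1 did not pass that filter, which a gene can pass through the sums with keratin alone. Without keratin, LAMA5 had 4 and 6 UMIs, AGRN 6 and 4 and TNC 2 and 12. The count of 9 therefore depends in part on the filter. The members' median was 2.77 and that of all genes -0.03. TMM factors were 0.733 and 0.711 for cells with keratin and 1.43 and 1.34 for those without. They shift every log2 difference here upward from the ratio of the CPM values. Scaling by library totals was not run for this contrast. VCAN differed least (1.21, SE 0.35, adjusted p = 0.00698), and it overlapped between the subsets, at 504 and 440 CPM with keratin and 191 and 566 CPM without. NID1 was at 124 CPM in both replicates with keratin and at 81.9 and 75.0 CPM without (1.5, SE 0.39, adjusted p = 0.00221). FBN1 was at 21.6 and 12.1 CPM with keratin and at 18.2 and 20.5 CPM without, on 8, 10, 2 and 3 UMIs. With DESeq2, NID1 (1.52, adjusted p = 0.137) and VCAN (1.32, adjusted p = 0.0735) lost their calls in this contrast.

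**Figure D4:**
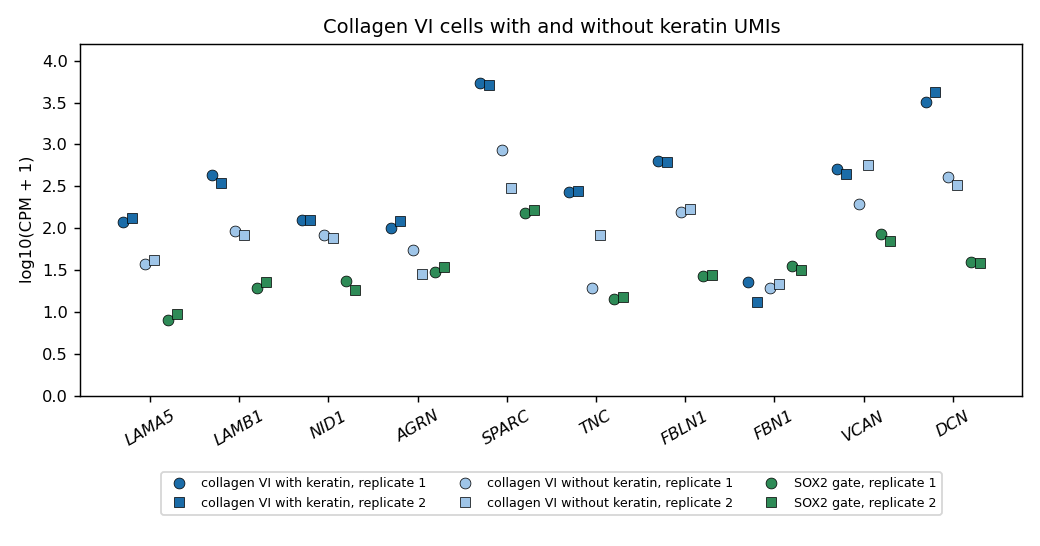
Level of each member, as log10(CPM + 1), in collagen VI cells with 2 or more UMIs of KRT8 and KRT18, in collagen VI cells with fewer, and in SOX2 cells, for 2 replicates. SPARC and DCN separate the keratin subsets most, and VCAN and FBN1 overlap between them.

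The 2 subsets differed in much besides keratin. Cells without keratin had median depths of 4736 and 4419 UMIs against 12193 and 12529, and median ribosomal shares of 3.84% and 14.2% against 27.6% and 27.1%. In 10 and 19 of them the collagen VI count was exactly 2, the lowest the gate admits, and 45.0% and 40.7% carried a SOX2 UMI. Summed neural progenitor markers were at 1010 and 805 CPM in them and at 105 and 116 CPM in cells with keratin. The part of these values in the keratin contrast was not tested. With the keratin cells left out, an alternative chosen after the data were seen, 3 members remained higher than in SOX2 cells (LAMB1, NID1 and FBLN1; 3.09% of genes called) and 4 than in neuron-gate cells (the same 3 and TNC; 10.8% called). Within that subset SPARC differed from SOX2 cells by 1.72 (adjusted p = 0.384) and DCN by 3.18 (adjusted p = 0.350). SPARC was at 865 and 300 CPM there against 149 and 166 in SOX2 cells, and DCN at 410 and 328 against 38.5 and 36.9. The same fit lost calls between gates whose cells did not change. In neuron-gate against SOX2 cells SPARC was at -0.75 (adjusted p = 0.219) and VCAN at 0.88 (adjusted p = 0.174). A lost call in this fit therefore does not show that a difference is absent.

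Cells just inside and just outside the threshold of 2 collagen VI UMIs were compared as a description. Cells with exactly 2 UMIs had SPARC at 287 and 349 CPM, those with 3 or more had 5261 and 5061 CPM, and those with 1 UMI, outside the gate, had 144 and 196 CPM. DCN was at 99.6 and 175 CPM just inside and at 25.6 and 290 CPM just outside. VCAN was at 162 and 317 CPM just inside and at 126 and 128 CPM just outside. SPARC, VCAN, LAMA5, LAMB1 and FBLN1 were higher just inside than just outside in both replicates. AGRN, NID1, TNC and DCN were higher inside in 1 replicate and lower in the other, and FBN1 was lower inside in both (24.9 and 23.8 against 53.2 and 26.9 CPM). Only 13 and 25 cells lay just inside. There LAMA5 had 4 and 6 UMIs, LAMB1 4 and 8, NID1 1 and 5, AGRN 2 and 6, TNC 2 and 14 and FBN1 2 and 3. The directions of these 6 members rest on too few molecules to be read. FBLN1 had 15 and 9 UMIs there, DCN 8 and 22 and VCAN 13 and 40, so these directions also rest on few molecules in at least 1 replicate.

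Ribosomal share also divided the members within the neural gates. In SOX2 cells with 10% or more ribosomal UMIs SPARC was at 210 and 220 CPM, against 94.2 and 86.1 CPM in those with less. VCAN ran the other way there, at 42.5 and 49.3 against 120 and 97.5 CPM. In neuron-gate cells VCAN was at 56.3 and 64.3 CPM with 10% or more and at 244 and 190 CPM with less, and SPARC was at 114 and 120 CPM against 28.4 and 27.3 CPM. As log2 ratios of CPM + 20, cells of high over cells of low ribosomal share, SPARC was at 1.47 and 1.57 in neuron-gate cells and at 1.01 and 1.18 in SOX2 cells, and VCAN at -1.79 and -1.31 and at -1.17 and -0.76. FBLN1 and DCN were positive and FBN1 was negative in both gates and replicates, while LAMB1 was within 0.10 of 0 in all 4. The DCN ratios rest on few cells. In SOX2 cells 5 cells held 79.4% and 53.1% of its UMIs, and in neuron-gate cells 53.8% and 38.6%. Median depth was 8883 and 9532 UMIs in SOX2 cells of high ribosomal share and 4689 and 4677 in those of low share, and the part of depth in these ratios was not tested.

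**Figure D5:**
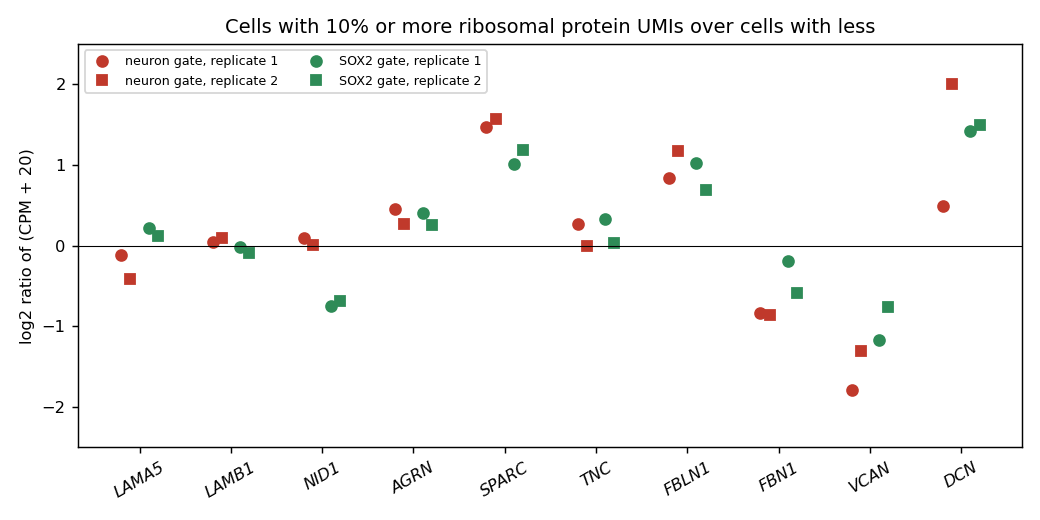
Log2 ratio of (CPM + 20) for each member, cells with 10% or more ribosomal protein UMIs over cells with less, in the neuron and SOX2 gates of 2 replicates. SPARC, FBLN1 and DCN lie above 0 and FBN1 and VCAN below 0 in both gates and replicates. In each gate and replicate, 5 cells held 38.6% or more of the DCN UMIs.

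When only cells with 10% or more ribosomal UMIs were compared, collagen VI cells still had 9 members higher than SOX2 cells (41.8% of genes called) and 9 higher than neuron-gate cells (43.3% called). The neuron-gate against SOX2 contrast kept 2 members as higher (FBLN1 and VCAN) and 2 as lower (SPARC and TNC), with 25.2% of genes called. NID1, at -1.35 over all cells, was at -0.47 there (SE 0.33, adjusted p = 0.322), and LAMB1, AGRN and FBN1 also lost their calls.

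PAG/PRP cells had few molecules of any member. NID1, TNC, FBN1, VCAN and DCN had no UMI in the 21 cells, which allows, taking 3 cells of the total as the limit, a share of cells with a UMI of up to 25.0% in replicate 1 and 33.3% in replicate 2. SPARC and FBLN1 had 1 UMI each, LAMB1 2 and AGRN 3. LAMA5 had 9 UMIs, in 4 of 12 and 2 of 9 cells (49.4 and 22.1 CPM), with exact 95% counting intervals of 19.9 to 102 and 2.67 to 79.6 CPM. Replicate 1 lay above the SOX2 and neuron-gate levels, while the interval of replicate 2, which rests on 2 UMIs, covers them. LAMA5 had no UMI in the 9 and 23 globin-high cells (shares of up to 33.3% and 13.0% are allowed). Since replicate 2 held fewer than 10 PAG/PRP cells, these values were given with counting intervals over both replicates and no test.

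Collagen VI cells exceeded PAG/PRP cells 1033-fold in SPARC (exact 95% interval 185 to 40820) and 2.89-fold in LAMA5 (1.49 to 6.43). DCN, with no UMI in PAG/PRP cells, was at least 254-fold higher in collagen VI cells, against a floor of 3 counts over the gate. For LAMA5 the SOX2 level was 0.202 of the PAG/PRP level (0.102 to 0.456) and the neuron-gate level 0.265 (0.132 to 0.603). These folds are ratios of CPM in the 1% gate without TMM factors, so they are not on the scale of the log2 values that follow. A looser gate of 0.5% held 13 and 12 cells and allowed the test: LAMA5 was then higher in PAG/PRP than in SOX2 cells (log2 3.12, SE 0.65, adjusted p = 4.39e-05; 45.2% of genes called) and than in neuron-gate cells (2.58, SE 0.63, adjusted p = 4.58e-04; 44.0% called). In the same fit SPARC was lower in PAG/PRP than in SOX2 cells (-4.66, SE 0.79, adjusted p = 8.13e-07), and LAMB1 was not called (-0.72, SE 1.04, adjusted p = 0.578). All 10 members were called higher in collagen VI than in PAG/PRP cells in that fit, where 34.4% of genes were called in either direction. NID1, TNC, FBN1, VCAN and DCN had no UMI in the PAG/PRP cells of the 1% gate, so the sizes of their differences are not read. FBN1 had the largest SE of the members there (8.95, SE 3.53, adjusted p = 0.0407), with 10 and 13 UMIs in collagen VI cells.

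Other genes of the matrix were counted in 7 lists that include the members. Of the basement membrane partners, all 10 tested were higher in collagen VI cells than in SOX2 cells and than in neuron-gate cells, where 23.6% and 22.5% of all genes were. They include NID2, a second nidogen, at 275 and 246 CPM against 10.2 and 7.63 CPM in SOX2 cells, and COL4A1, a chain of the collagen IV network, at 2441 and 2455 against 148 and 166 CPM. In neuron-gate against SOX2 cells 8 of the same list were lower and 1 was higher, where 22.4% of all genes were lower and 22.9% higher. Among cells with 10% or more ribosomal UMIs 5 were lower and 0 higher, where 1247 of 11765 genes were lower and 1718 higher. Without the keratin cells, 7 of 11 tested were higher in collagen VI than in SOX2 cells, where 294 of 12770 genes were. Against neuron-gate cells 8 of 11 were higher, where 541 of 12770 genes were. Of 7 laminin chains tested, 5 were higher in collagen VI than in SOX2 cells, where 23.6% of all genes were. Without the keratin cells 3 chains were higher, where 294 of 12770 genes were. With all cells LAMA4 led the chains (162 and 123 CPM against 1.02 and 2.18 CPM, log2 6.97, SE 0.28, adjusted p = 3.55e-12). The chain LAMA1, of the first laminin of the embryo, was lower in collagen VI than in SOX2 cells (-2.0, SE 0.26, adjusted p = 1.07e-05). It was lower in neuron-gate than in SOX2 cells too (52.6 and 51.6 against 89.1 and 86.9 CPM).

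Of the receptors, 10 of 23 were higher and 5 lower in collagen VI than in SOX2 cells, and the share lower was near the 20.7% of all genes. By library totals 10 were higher and 8 lower, where 1743 of 12912 genes were higher and 6434 lower. Without the keratin cells 2 were higher and 1 lower, where 294 of 12770 genes were higher and 100 lower. CD44, a receptor for hyaluronan, was at 123 and 80.9 CPM against 0.408 and 0.681 CPM, while ITGA6, an α subunit of laminin-binding integrins, was lower (-1.82, SE 0.34, adjusted p = 3.87e-04). Among proteoglycans, LUM, the close relative of DCN, was at 950 and 1366 CPM in collagen VI cells and at 7.95 and 8.18 CPM in SOX2 cells. NCAN, a proteoglycan of brain matrix, was higher in neuron-gate than in SOX2 cells (93.4 and 88.3 against 4.89 and 4.09 CPM; 4.50, SE 0.17, adjusted p = 2.23e-12).

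Over all listed genes tested, 57 of 95 were higher and 12 lower in collagen VI than in SOX2 cells, 63 higher and 16 lower than in neuron-gate cells, and 17 higher and 44 lower in neuron-gate than in SOX2 cells. Among all genes tested, 23.6% were higher and 20.7% lower in the first of these contrasts, 22.5% and 20.6% in the second and 22.9% and 22.4% in the third. The listed medians were 1.93, 2.40 and -0.54, against -0.09, -0.08 and -0.01 of all genes. Scaled by library totals, the counts were 53 and 22, 60 and 22, and 15 and 46. Of all 12912 genes, 1743 were then higher and 6434 lower in the first contrast. The numbers were 1889 and 5526 in the second and 2211 and 4143 in the third. Without the keratin cells, 20 of 96 listed genes were higher and 1 lower than in SOX2 cells (3.09% of genes called), and 30 were higher and 4 lower than in neuron-gate cells (10.8% called).

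Across the 12 sums of gate and replicate, the gene whose level most resembled that of SPARC was CD99, a cell surface glycoprotein (Pearson r = 0.997 of log2(CPM + 20), over genes reaching 50 CPM in a sum), followed by COL5A2, a fibrillar collagen chain (0.994). TNC was most like LOXL2, a collagen cross-linking enzyme, and COL12A1 (both 0.997), LAMB1 like HSPG2, which encodes perlecan (0.990), NID1 like MRC2 (0.997), and DCN like ITGA8, an integrin subunit (0.994). FBLN1 was most like PRSS35 (0.983), LAMA5 like PLPP2 (0.975) and AGRN like TMEM9 (0.974). VCAN was nearest to PCDH7, a protocadherin (0.994), and FBN1 to MACROD2 (0.995), with 508 of 7008 genes above 0.95 for FBN1 and 91 for SPARC. These values describe 12 points that share 2 libraries and carry no test.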

How the data were processed

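Single cells of 2 day 25 bovine embryo samples were measured. The authors deposited 1 table of raw, unscaled UMI counts. Per the submitters' processing notes, Cell Ranger (version not given in the sources used here) with bosTau9, Seurat 4.3.0 and R 4.1.2 were named; no annotation was. Deposited cells had 201 to 3999 genes and at most 4.98% mitochondrial UMIs. Each column was matched to its replicate by its name. Replicates held 11182089 and 15427708 UMIs; intervals and floors cover counting error only.

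Cells with 500 or more genes were kept; no doublet caller was run. Cells meeting several gates (489) went to the first of globin-high, PAG/PRP, collagen VI, neuron and SOX2. UMIs were summed per gate and replicate where both replicates had 10 or more cells. The sums were tested with edgeR 4.0.16 in R 4.3.3 (quasi-likelihood test, robust fit, TMM, low-count filter). Replicate was a block, since both gates come from the same suspension. The fit had 2 residual and a median of 14.1 prior degrees of freedom. The prior value differs between genes in a robust fit. The adjusted p is Benjamini-Hochberg over all 12912 genes, 5412 in the keratin contrast, which has 1 residual and a median of 26.8 prior degrees of freedom. The code was tested on simulated data. CPM uses all UMIs of a gate; ratios add 20 CPM; shares have exact intervals, and a share of 0 the limit of 3 counts of the total. Alternatives were DESeq2 1.42.0, other scalings, filters, gates, depths and cells, no block, and each replicate left out. The text names all members and, per list and contrast, from up to 3 genes with the largest change among those called with 50 or more UMIs, some examples; LAMA1 in collagen VI cells and ITGA6 were added after their values were seen. The members and lists were chosen with earlier results of these data known. RefSeq names (ARS-UCD2.0) matched all 10 members; coordinates were not used. Reads of near-identical genes (the PAG and PRP families, the globins) and of KRT8 and KRT18, which have processed copies, could be split between copies.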

Additional observations from a re-analysis of the deposited data

How the results depend on the processing

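The members' counts in the collagen VI contrasts changed only where keratin cells, cells of low ribosomal share or deep cells were left out, or with DESeq2 or library totals; the cause was not tested. With keratin cells left out (chosen after the data were seen), 3 members were higher than in SOX2 cells, with 294 genes higher and 100 lower, and 4 than in neuron-gate cells with 0 lower, with 541 and 844 genes; AGRN there was at -0.25 (adjusted p = 0.808; 8.47e-21 at the lowest over its alternatives). Against SOX2 cells the genes lower were 1281 with 1 collagen VI UMI as the gate, and 1586 with DESeq2. They were 1158, with 1657 higher, without the 5% deepest cells, and 6434, with 1743 higher and 1 member lower, by library totals. Against neuron-gate cells 0 members were lower at a ribosomal share of 10% or more, without the deepest cells (1794 genes higher and 1696 lower) and with DESeq2, and library totals gave 1889 and 5526 genes. In neuron-gate against SOX2 cells a ribosomal share of 10% or more gave 2 members higher and 2 lower, with 1718 and 1247 genes, and DESeq2 gave 1493 and 929 genes. DESeq2 gave 588 and 311 genes in the keratin contrast. The median of member differences from PAG/PRP cells, 3.68 in collagen VI cells, was 2.95 with 1 collagen VI UMI as the gate and 2.19 without keratin cells; that of PAG/PRP against SOX2 cells, -1.17, was -0.96 with 2 SOX2 UMIs and -1.08 at a ribosomal share of 10% or more.

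Without the replicate block, LAMB1 (-0.56, adjusted p = 0.0528) and AGRN (0.45, adjusted p = 0.0543) lost their calls in neuron-gate against SOX2 cells, and no other member's call changed. In that contrast LAMB1 was called in 12 of 18 tested alternatives, AGRN in 14 and DCN in 6. Leaving out a replicate leaves no residual degrees of freedom, so those values have no test. The keratin contrast in cells of high ribosomal share could not be fitted, with too few cells in replicate 1.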
